A study of Ambystoma mexicanum with 61 samples.

Results

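Integrins and laminins of the axolotl were described over 17 tissues and 2 states of the animal. Members were the gene models whose symbol begins with ITGA or ITGB, or with LAMA, LAMB or LAMC followed by a digit. The rule found 41 of 23251 gene models, which carry 35 symbols. They comprise 15 integrin alpha models, 8 integrin beta models, 15 laminin chain models and 3 genes that share the prefix but encode no integrin subunit (*Itgb1bp1*, *Itgb3bp* and *Itgbl1*). *Itga1*, *Itga4*, *Itgam* and *Itgax* were not analysed here.

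Bulk RNA-seq was used of d/d strain axolotls (*Ambystoma mexicanum*) aged 1 year. Metamorphosed animals had been treated with thyroxine (T4), the thyroid hormone that starts metamorphosis in this species, and gave 27 libraries from 15 tissues. Neotenic animals, which keep larval traits as adults and had no such treatment, gave 34 libraries from 17 tissues. The study's methods name 2 animals per state, so libraries of different tissues of a state can come from the same animal. Of the 15 tissues, 12 had 2 libraries in each state (bladder, cloacal chamber, eye, hind limb, intestine, kidney, liver, lung, skin, spleen, stomach and tail). Brain, fore limb and heart had 1 metamorphosed library, and gill and gonad were neotenic only.

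Integrins are receptors made of 1 alpha and 1 beta subunit that hold cells to the extracellular matrix or to other cells. Laminins are cross-shaped trimers of an alpha, a beta and a gamma chain, and they form the sheet of the basement membrane on which epithelia, muscle fibres and vessels rest. In skin, the integrin of *Itga6* and *Itgb4* anchors basal keratinocytes to a laminin with the *Lama3* and *Lamb3* chains at hemidesmosomes. The receptor of *Itga2b* and *Itgb3* binds fibrinogen on platelets, and on thrombocytes, their nucleated counterparts in other vertebrates. Integrins with *Itgb2* or *Itgb7* belong to leukocytes. These roles are known mainly from mammals.

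Levels are given as CPM, that is, counts scaled to a common library size by the library total and a TMM factor, and as RPKM, which divides CPM by exon length in kilobases, where genes are compared with each other. Several members are incomplete or doubled models. *Lama2*, *Lamb4*, *Lamc3* and *Itga8* each have a pair of models, told apart here by their number of exons. The 4-exon *Lama2* model (AMEXTC_0340000248307) spans 868 exon bases, the 21-exon *Lamb4* model (AMEXTC_0340000044081) 3903, and *Itgav* holds only 4 exons. The *Itga9* model and its copy 2 lie on opposite strands of 1 scaffold, with 73.4% and 68.0% of their exon bases shared. For *Itgb5* and its copy 2 the shares were 98.2% and 93.7%. Counting took no account of strand and left out fragments that fell on more than 1 gene, so the levels of these 4 models are uncertain. *Itgb5* had 0 counts in all 61 libraries and its copy 2 had 17. With the single-exon *Lamc3* model, which had 43 counts, they were left out by the filter on low counts, and 38 members were tested.

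Library totals lay between 69278 and 27389476 counts, with a median of 7899985. The lowest was metamorphosed skin replicate 1, where a single count of a gene equals 8.06 CPM and a member with no count may lie at up to 24.2 CPM, the level of 3 counts. The next lowest library held 1604880 counts. Some libraries carried genes of another tissue. Stomach gland markers (*Gkn1* and *Aqp4*) summed to 18490 CPM in neotenic tail replicate 2 and 7.12 CPM in neotenic stomach replicate 2, against 6449 to 13980 CPM in the other 3 stomach libraries. Epithelial and skeletal muscle markers summed to 632 and 14.4 CPM in that tail library, against 6507 and 8667 CPM in neotenic tail replicate 1, and to 4715 and 2768 CPM in that stomach library, against 540 and 18.3 CPM in neotenic stomach replicate 1. By these markers, that tail library and that stomach library each resembled the other's tissue, and their labels were kept. Neotenic bladder replicate 2 held 6605 CPM of skeletal muscle markers and replicate 1 12.9 CPM. Markers of intestinal epithelium summed to 2918 CPM in metamorphosed skin replicate 2, 3151 CPM in hind limb replicate 2, 2083 CPM in bladder replicate 2 and 3192 CPM in the metamorphosed fore limb library. Metamorphosed skin replicate 1 held 330 CPM of them. The mean difference over tissues, the differences within bladder, hind limb, skin, stomach and tail, and the enrichment in bladder, stomach and tail were also computed without such libraries. The p-values measure the spread between libraries, and in tissue RNA fewer cells of a type and less RNA per cell cannot be told apart.

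Per kilobase, *Itgb1*, the shared beta subunit of most matrix receptors, was the highest member, with a mean of 84.0 RPKM over the 61 libraries. The leading laminin chains were the 4-exon *Lama2* model at 27.8 RPKM, *Lamb1* at 26.6 RPKM and *Lamc1* at 15.8 RPKM. Among alpha subunits, *Itga6* led with 20.4 RPKM, followed by the vitronectin receptor subunit *Itgav* with 16.5 RPKM. *Itga11*, a collagen receptor subunit of fibroblasts, averaged 4.25 RPKM, and *Itgal*, an alpha subunit of leukocytes, 3.62 RPKM. *Itgbl1*, a secreted relative of the beta subunits, averaged 14.9 RPKM.

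**Figure D1:**
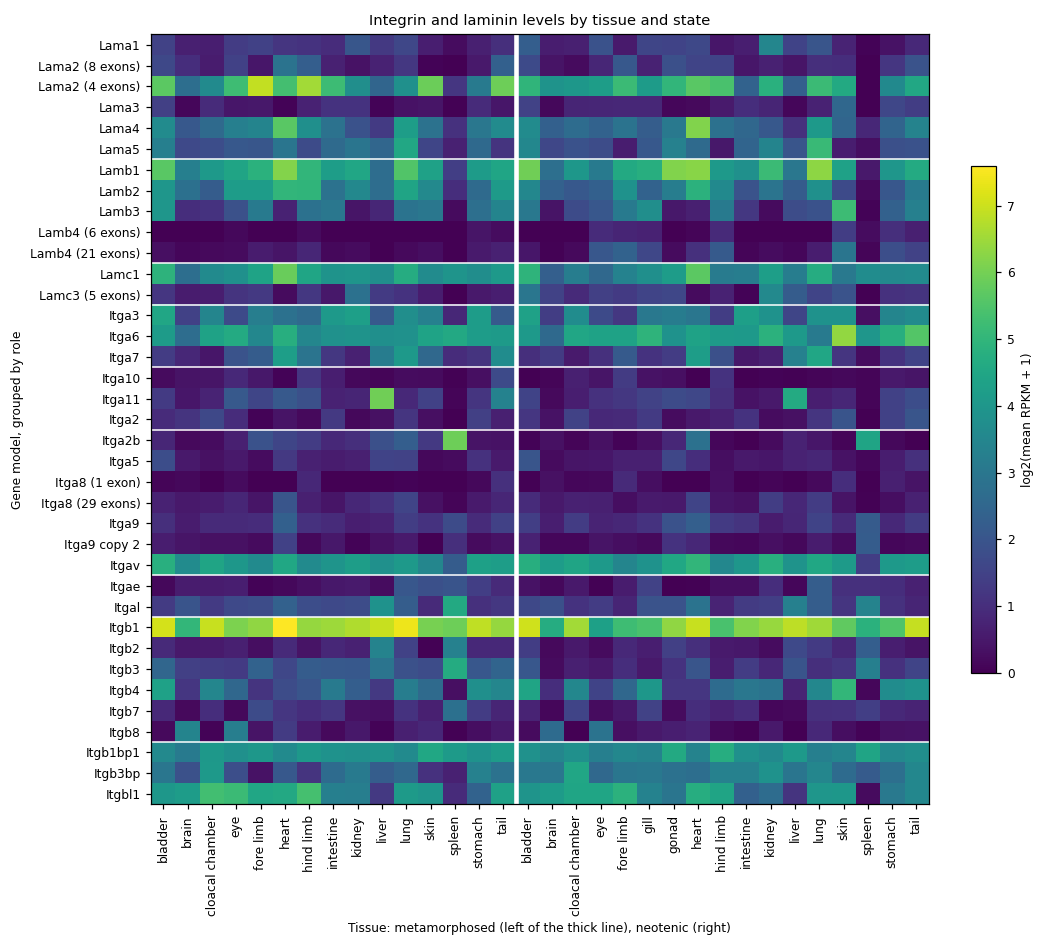
Mean level of 37 tested members (rows) in each tissue and state (columns), as log2(mean RPKM + 1), with metamorphosed tissues left of neotenic ones. *Itgb1* is high in every column, whereas *Itgb8* is high in brain and eye, *Itga2b* in spleen and *Lama4* in heart.

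Tissue enrichment was tested in neotenic libraries as each tissue against the mean of the other 16, with edgeR's quasi-likelihood test. A gene was called in a tissue where its log2 fold change reached 1 and its adjusted p-value lay under 0.05. Of 629 pairs of a member and a tissue, 111 (17.6%) were called, against 10.7% of all pairs. The calls fell on 36 of the 37 members tested, and *Itgb1bp1*, an intracellular regulator of beta-1 integrins, had none. The share of all genes called in at least 1 tissue is not given, so 36 of 37 may be no more than usual. Bladder and heart had 13 enriched members each, lung 11 and skin 10, whereas brain and intestine had 1 each. The share of all genes called in each tissue is not given, so these counts cannot be set against it.

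Laminin alpha chains did not all share a leading tissue, though *Lama4* and the 4-exon *Lama2* model were both highest in heart. *Lama1*, the chain of embryonic and kidney tubule laminins, had 100.4 and 102 CPM in the neotenic kidney libraries (log2 fold change 3.53, SE 0.24, adjusted p 4.63e-10). *Lama4*, a chain of vessel and muscle basement membranes, had 447 and 561 CPM in heart (3.84, SE 0.44, adjusted p 1.04e-06). *Lama5*, the broad epithelial chain, had 535 and 448 CPM in lung (3.94, SE 0.44, adjusted p 7.33e-07). Each was also enriched in at least 1 further tissue, with bladder and kidney shared by *Lama5* and the *Lamb1* chain. *Lama3*, the epidermal chain, had 35.5 and 8.38 CPM in skin, and was called in bladder, stomach and tail as well. The 4-exon *Lama2* model, a fragment of the muscle laminin chain, reached 27.7 and 58.3 CPM in heart and was called in fore limb, hind limb and lung too.

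Of the beta and gamma chains, *Lamb1* and *Lamc1*, which occur in most laminins, were high in the same neotenic organs. *Lamb1* had 540 and 437 CPM in lung, 484 and 464 CPM in heart and 441 and 319 CPM in bladder. *Lamc1* had 496 and 767 CPM in heart, 426 and 324 CPM in bladder and 331 and 300.3 CPM in lung. Both were called in all 3 organs. *Lamb2*, a chain of muscle and kidney basement membranes, had 174 and 196 CPM in heart (2.63, SE 0.46, adjusted p 0.000252). *Lamb3* had 341 and 107 CPM in skin (4.29, SE 0.46, adjusted p 4.59e-07). It was also called in tail, gill, bladder, fore limb and hind limb. The 5-exon *Lamc3* model had 15.4 and 9.35 CPM in kidney and 6.99 and 8.66 CPM in bladder.

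The 21-exon *Lamb4* model, a beta chain related to *Lamb1*, followed the tissues that carry skin. It had 20.8 and 32.1 CPM in neotenic skin (3.81, SE 0.54, adjusted p 1.8e-05) and 12.4 and 20.5 CPM in fore limb. It was also called in stomach, where replicate 1 had 2.39 CPM and replicate 2, which lacked stomach gland genes, had 17.4 CPM. In tail the order was turned round, with 13.7 CPM in replicate 1 and 0.389 CPM in replicate 2, the library with stomach gland genes.

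Laminin-binding alpha subunits differed in their leading tissue. *Itga6* had 955 and 450 CPM in neotenic skin (2.15, SE 0.25, adjusted p 1.22e-06). *Itga7*, the alpha subunit of muscle fibres, had 99.8 and 124 CPM in lung and 54.5 and 130.5 CPM in heart (3.92 and 3.54). *Itga3*, an epithelial subunit, had 142 and 107 CPM in intestine and 164 and 99.2 CPM in bladder. *Itgb4*, the partner of *Itga6*, had 341 and 185 CPM in skin and was called in bladder, gill, stomach and tail.

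Of the other alpha subunits, *Itga11*, *Itga10* and *Itga2b* were highest in 1 or a few organs. *Itga11* had 248 and 157 CPM in neotenic liver (4.87, SE 0.46, adjusted p 6.78e-08), and its next highest neotenic tissue, tail, averaged 21.2 CPM. *Itga10*, a collagen receptor subunit of cartilage, had 7.53 and 3.97 CPM in fore limb and 4.41 and 4.45 CPM in hind limb. *Itgav* was broad, with a median of 42.8 CPM over the 61 libraries, and was called in heart alone, with 66.3 and 95.2 CPM, just above the fold threshold (1.02, SE 0.30). *Itga2b* had 85.3 and 123 CPM in spleen (7.13, SE 0.51, adjusted p 1.5e-09) and 40.6 and 21.4 CPM in heart (5.21, SE 0.55, adjusted p 5.51e-07). Its partner *Itgb3* had 24.9 and 48.0 CPM in spleen, the sole tissue in which it was called.

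Among beta subunits, *Itgb8*, which binds latent TGF-beta, was highest in brain and eye. It had 26.6 and 36.0 CPM in neotenic brain (4.72, SE 0.47, adjusted p 1.47e-07) and 58.9 and 16.7 CPM in eye (5.05, SE 0.46, adjusted p 3.55e-08). Lung was called as well, with 7.09 and 2.78 CPM. Leukocyte members led in different organs. *Itgal* had 54.8 and 51.7 CPM in spleen and 42.9 and 57.0 CPM in liver. *Itgb2*, its partner, had 7.80 and 10.5 CPM in spleen on a model of 3 exons. *Itgb7*, a subunit of lymphocyte homing receptors, had 6.61 and 5.05 CPM in cloacal chamber and 5.79 and 5.27 CPM in gill. The copy 2 of *Itga9* was called in gonad on 13.9 CPM in replicate 1 and 0.186 CPM in replicate 2, so that call rests on 1 library.

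Of the remaining members, *Itga5*, the alpha subunit of the fibronectin receptor, had 34.7 and 9.84 CPM in neotenic bladder (2.70, SE 0.49, adjusted p 0.000402). *Itgae*, a subunit of lymphocytes that lie within epithelia, had 8.44 and 3.08 CPM in lung and was called in 6 tissues. *Itga2*, a collagen receptor subunit, had 3.27 and 7.19 CPM in tail and 6.27 and 3.96 CPM in skin, where the 7.19 CPM came from the tail library with stomach gland genes. The 29-exon *Itga8* model had 12.4 and 8.13 CPM in heart, and *Itga9*, a tenascin receptor subunit, 22.5 and 21.5 CPM there. *Itgb3bp* reached 10.6 and 2.13 CPM in cloacal chamber, and *Itgbl1* 107 and 82.6 CPM in fore limb.

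Without replicate 2 of the tissue, the library that carried genes of another organ, 4 of 7 calls were kept in tail, 2 of 4 in stomach and 10 of 13 in bladder. In tail, *Itga6* (1.39, adjusted p 0.0236) and *Lamb3* (2.60, adjusted p 0.0272) were still called. *Lama3* (2.07, adjusted p 0.0696), *Itgb4* (1.97, adjusted p 0.0931) and *Itga2* (1.74, adjusted p 0.238) were not, and the 21-exon *Lamb4* model was called in addition (2.78, adjusted p 0.00746). In stomach, *Lama3* (2.73) and *Itgae* were kept, whereas *Itgb4* (1.85) and the 21-exon *Lamb4* model (0.30) were lost. *Itga3* was called in stomach in addition (1.83). Lost in bladder were *Lama5* (2.19), the 8-exon *Lama2* model (1.565) and *Itgb1* (1.06), which had been called in bladder alone.

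Known partners were compared by Pearson's r of log2 levels over tissue means, as a description over 17 neotenic and 15 metamorphosed tissues that share libraries and, in 4 of the metamorphosed tissues, intestinal genes. *Itgb4* and *Lamb3* gave 0.61 in metamorphosed tissues and 0.75 in neotenic tissues. *Itga6* and *Itgb4* gave 0.20 and 0.53, in the same order of states. The leukocyte pair *Itgal* and *Itgb2* gave 0.87 and 0.67, and *Itga2b* and *Itgb3* gave 0.81 and 0.61. The median over all 703 pairs of members was 0.14 in metamorphosed tissues and 0.12 in neotenic tissues. The sets of tissues differ between the states, and no difference between the 2 values of a pair was tested.

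To ask what metamorphosis changed over the body, the mean difference between the states was tested over the 12 tissues with 2 libraries each. The p-values of this test measure the spread between libraries and not between animals, of which the methods name 2 per state. Of 38 members, 9 rose (23.7%) and 2 fell (5.26%), against 10.9% higher and 7.02% lower over all 20216 genes. The median log2 difference was 0.23 over members and 0.02 over all genes. The 9 members that rose were *Itga2b*, *Itgb3*, *Lamb2*, *Lamc1*, *Itgb1*, *Itga7*, the 4-exon *Lama2* model, *Itga11* and *Itgbl1*. Those that fell were the 21-exon *Lamb4* model and *Itgb3bp*. In a fit of log2 CPM with limma-trend, 7 members rose and 3 fell, against 7.04% and 8.23% of all genes, so the excess of higher over lower genes in the background depends on the fit.

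**Figure D2:**
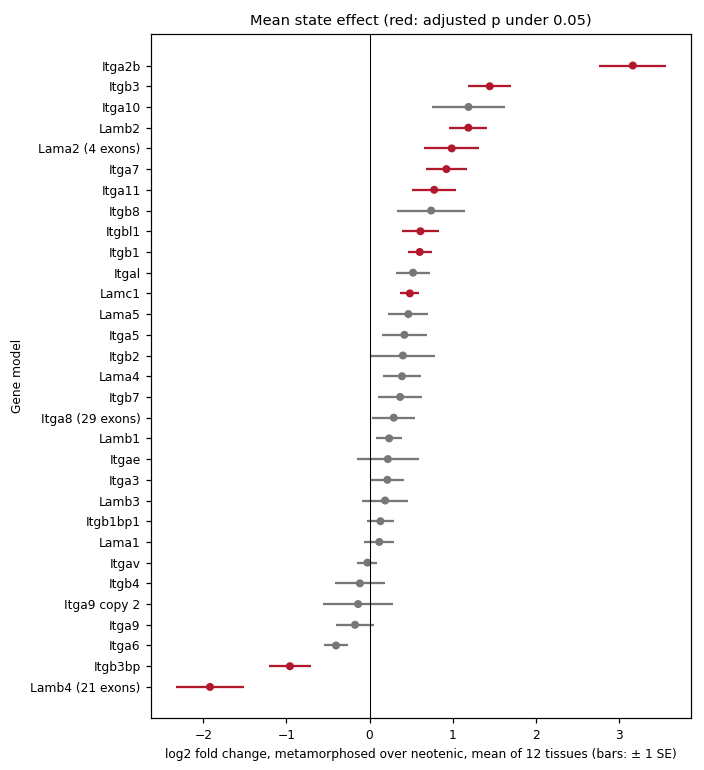
Mean log2 difference between metamorphosed and neotenic libraries over 12 tissues (x axis, metamorphosed minus neotenic) for 31 members, with bars of 1 SE and members in order of their value. Red points have an adjusted p-value under 0.05 and grey points do not, and *Itga2b* lies farthest to the right at 3.17.

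By role, 1 of 3 laminin-binding alpha subunits rose (*Itga7*), 1 of 3 collagen-binding ones (*Itga11*), 1 of 7 RGD-binding and related ones (*Itga2b*) and 0 of 2 leukocyte ones. Of 6 beta subunits tested, 2 rose. Of the laminin chains, 1 of 6 alpha models rose, 1 of 5 beta models rose and 1 fell, and 1 of 3 gamma models rose. The next members in order of p-value were *Itga6* (−0.40, adjusted p 0.0502), *Itga10* (1.19, adjusted p 0.0570) and *Itgal* (0.52, adjusted p 0.0677). With the replicate number as a block, *Itga6* passed (−0.42, adjusted p 0.0380) and *Itgbl1* did not (0.61, adjusted p 0.0518). For 11 members at least 1 group of 2 libraries held no count, and in 7 of them the mean difference had no usable error in the count model (among them *Lama3*, *Itga2*, the 8-exon *Lama2* model, the 5-exon *Lamc3* model, the single-exon *Itga8* model and the 6-exon *Lamb4* model). These could not be called either way by that model, and limma-trend called none of them.

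*Itga2b* rose most, by 3.17 on the log2 scale (SE 0.40, adjusted p 1.51e-06), and its fitted difference was positive in 12 of 12 tissues. That mean takes in a fitted 8.10 in intestine, where the neotenic libraries held no count. With limma-trend the rise was smaller, at 2.08 (SE 0.37, adjusted p 0.000186). In spleen, where it is highest, it had 216 and 391 CPM in metamorphosed libraries, against 85.3 and 123 CPM in neotenic libraries. In lung it had 10.7 and 28.5 CPM, against 1.80 and 2.16 CPM. In hind limb it had 5.14 and 10.8 CPM, against 0.552 and 0.464 CPM. The states did not overlap in these 3 organs, nor in bladder, where the values were 2.58 and 5.01 CPM against 0.328 and 0.315 CPM. In intestine the metamorphosed libraries had 0.995 and 7.38 CPM and the neotenic ones no count, so the metamorphosed mean was at least 8.44-fold higher, with the floor set at 3 counts per library. In eye the ranges overlapped, with 1.01 and 5.03 CPM against 0.760 and 1.83 CPM.

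The metamorphosed replicate 2 libraries had the higher *Itga2b* level in 11 of the 12 tissues. Without them metamorphosed skin held no count, so the fitted mean (1.50, adjusted p 1) has no usable error. Without skin, hind limb, bladder, stomach and tail, the tissues with libraries that stand apart, it was 2.87 (SE 0.54, adjusted p 0.00135). Thrombocyte markers moved with it, with 2 of 3 higher and a median of 1.53. Among them *Gp1bb*, a subunit of the von Willebrand factor receptor, rose by 2.17 (adjusted p 4.61e-06). The sum of 3 such markers ranged over 0 to 496 CPM in metamorphosed libraries and over 0 to 514 CPM in neotenic libraries of the 12 tissues. In spleen that sum was 136 and 496 CPM in metamorphosed libraries, against 242 and 514 CPM in neotenic libraries, whereas *Itga2b* was higher in both metamorphosed ones. In lung it was 29.8 and 68.6 CPM, against 4.61 and 9.40 CPM. Markers of endothelium moved too, with 4 of 6 higher. The rise was not particular to these cell types. Over the 12 tissues, 3 of 4 markers of intestinal epithelium (median 2.93), 2 of 3 of lung (1.53) and 4 of 4 of liver (1.39) were also higher. Of the epithelial markers, 2 of 6 were lower. The part of any of these cell types or organs in the *Itga2b* difference was not tested.

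**Figure D3:**
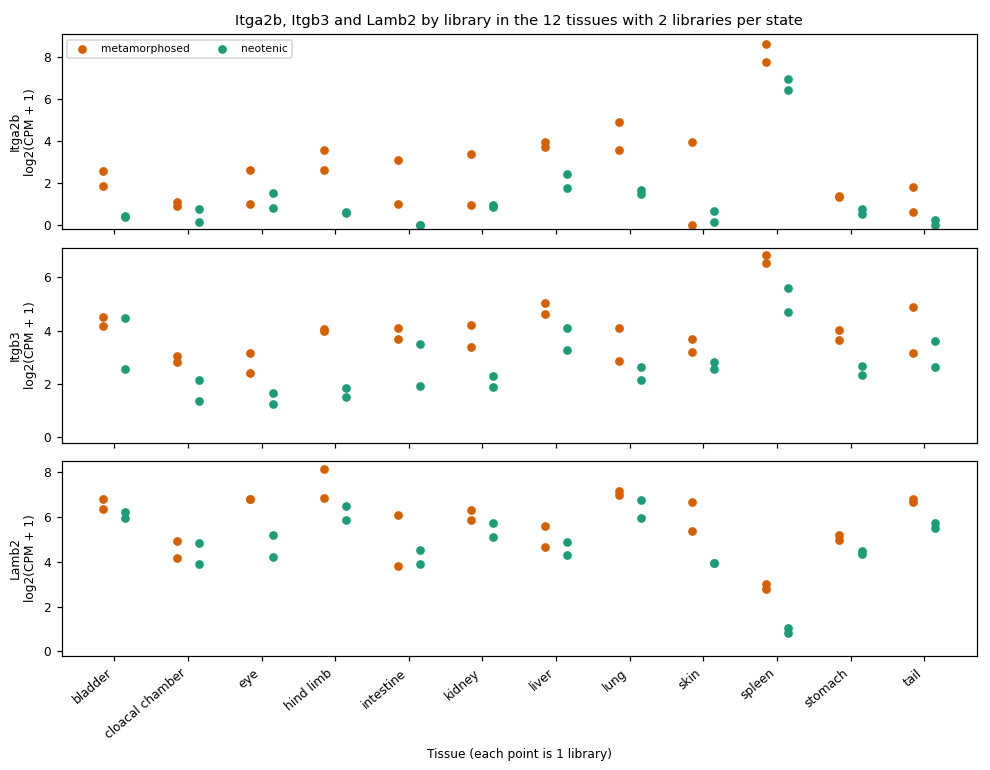
Levels of *Itga2b*, *Itgb3* and *Lamb2* as log2(CPM + 1) in each library of the 12 tissues with 2 libraries per state, with metamorphosed points left of neotenic ones in each tissue. Metamorphosed spleen holds the highest *Itga2b* values, 216 and 391 CPM, against 85.3 and 123 CPM in neotenic spleen.

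*Itgb3* rose by 1.45 (SE 0.26, adjusted p 0.000186), also with a positive difference in 12 of 12 tissues. It had 91.3 and 113 CPM in metamorphosed spleen, against 24.9 and 48.0 CPM in neotenic spleen. In hind limb the values were 15.9 and 14.7 CPM, against 1.84 and 2.60 CPM, and in stomach 15.3 and 11.4 CPM, against 5.43 and 4.05 CPM. Without the neotenic stomach library that lacked stomach gland genes, at 4.05 CPM, the stomach difference was 1.29 (adjusted p 1). The ranges of the states overlapped in bladder and tail. In skin the order is uncertain, because metamorphosed replicate 1 held 1 count (8.06 CPM), against 6.14 and 4.90 CPM in neotenic skin. The share of all genes without overlap is not given. The mean difference of *Itgb3* passed in each fit with 1 replicate number of a state left out.

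*Lamb2* rose by 1.19 (SE 0.23, adjusted p 0.000403), with 12 of 12 tissues in that direction. It had 111 and 112 CPM in metamorphosed eye, against 35.1 and 17.3 CPM in neotenic eye. It had 101 and 112 CPM in tail, against 43.8 and 52.8 CPM, and 40.3 and 100.4 CPM in skin, against 14.6 and 14.6 CPM. In spleen, its lowest organ, it had 5.79 and 7.11 CPM, against 0.743 and 1.09 CPM. Cloacal chamber was the weakest, at 17.3 and 29.5 CPM against 27.5 and 14.0 CPM, where the ranges overlap. Without the metamorphosed replicate 2 libraries the mean was 0.92 (adjusted p 0.0621).

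*Lamc1* and *Itgb1*, the most widely used chain and subunit, rose by less. *Lamc1* gave 0.49 (SE 0.12, adjusted p 0.00298), higher in 9 of 12 tissues. It had 260 and 262 CPM in metamorphosed hind limb, against 89.9 and 108 CPM in neotenic hind limb, and 196 and 132 CPM in eye, against 76.4 and 46.5 CPM. In kidney it was lower, with 178 and 184 CPM against 232 and 219 CPM (−0.32, adjusted p 1). *Itgb1* gave 0.61 (SE 0.15, adjusted p 0.00377), higher in 11 of 12 tissues. Its widest gap was in eye, with 249 and 307 CPM against 79.3 and 76.2 CPM. The exception was tail, with 283 and 399 CPM against 167 and 827 CPM, where the 827 CPM came from the library with stomach gland genes. Without the neotenic replicate 1 libraries neither passed (*Lamc1* 0.49, adjusted p 0.0935, and *Itgb1* 0.44, adjusted p 0.101), and without the neotenic replicate 2 libraries *Lamc1* did not pass either (0.51, adjusted p 0.102).

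The other 4 members that rose were *Itga7*, *Itga11*, the 4-exon *Lama2* model and *Itgbl1*. *Itga7* (0.93, SE 0.25, adjusted p 0.00756) was higher in 8 of 12 tissues, most in tail with 69.8 and 55.8 CPM in metamorphosed libraries against 9.47 and 10.5 CPM in neotenic ones. The call of *Itga7* was lost when skin, hind limb and bladder were left out. It was also lost without the neotenic replicate 1 libraries and without the metamorphosed replicate 2 libraries. *Itga11* (0.78, SE 0.27, adjusted p 0.0383) was higher in 10 of 12, with 50.5 and 108 CPM against 29.6 and 12.8 CPM in tail. In liver, its main organ, *Itga11* had 697 and 347 CPM in metamorphosed libraries, against 248 and 157 CPM in neotenic libraries, without overlap. The call of *Itga11* was lost when skin was left out, and when stomach and tail were left out. The 4-exon *Lama2* model (0.99, SE 0.33, adjusted p 0.0347) was higher in 8 of 12, and without spleen it gave 0.51 (adjusted p 0.233). *Itgbl1* (0.61, SE 0.22, adjusted p 0.0468) was higher in 11 of 12 and gave 0.44 without spleen (adjusted p 0.177). Limma-trend called neither of these last 2 (adjusted p 0.285 and 0.120).

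Of the 2 members that fell, the 21-exon *Lamb4* model gave −1.92 (SE 0.41, adjusted p 0.00125), with 11 of 12 tissues in that direction. Limma-trend gave −1.46 (adjusted p 0.00174). The fitted −4.08 in spleen came from no count in metamorphosed libraries, against 2 and 1 counts in neotenic ones. The model had 0 and 1.74 CPM in metamorphosed skin, against 20.8 and 32.1 CPM in neotenic skin. That count of 0, in replicate 1, allows up to 24.2 CPM, which covers the lower neotenic value. It had 4.69 and 1.16 CPM in hind limb, against 9.01 and 17.5 CPM, and 1.34 and 0 CPM in eye, against 4.31 and 20.8 CPM. Without skin the mean was −1.73 (adjusted p 0.00655). Without the 5 tissues with libraries that stand apart it was −1.72 and no longer passed (adjusted p 0.0994). The call was also lost without the neotenic replicate 1 libraries. *Itgb3bp*, a centromere protein named for its binding to the *Itgb3* tail, gave −0.96 (SE 0.25, adjusted p 0.00734) on a model of 293 exon bases. Its values were low, for instance 0.447 and 0.258 CPM in metamorphosed hind limb, against 3.96 and 1.39 CPM in neotenic hind limb. Without the neotenic replicate 1 libraries it gave −0.43 (adjusted p 0.481).

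Within single tissues, 2 members passed in skin and 0 in the other 11. The share of all genes called was 4.89% in skin, 0.717% in tail, 0.599% in hind limb, 0.49% in spleen, 0.0198% in liver and 0.00495% in bladder. It was 0% in cloacal chamber, eye, intestine, kidney, lung and stomach, so in these 6 tissues no gene of any kind was called with 2 libraries against 2. At an unadjusted p-value under 0.05, edgeR gave 11 members in spleen, against 9.55% of all genes. It gave 9 in hind limb (18.3% of all genes), 9 in skin (23%), 8 in tail (11.7%), 6 in eye (6.43%) and 4 in intestine (8.13%). It gave 3 in bladder (8.06%), 3 in kidney (3.09%), 2 in stomach (8.68%), 1 in lung (3.08%), and 0 in cloacal chamber (2.14%) and liver (3.3%). The 9 members in skin are 23.7% of those tested, a share near that of all genes. DESeq2 called 6 members in skin, against 11.2% of all genes, 5 in hind limb (8.06%), 2 in intestine (2.42%) and 1 in tail (3.86%). It called 0 in the other 8 tissues, where the share of all genes was 2.9% in spleen, 2.09% in bladder, 1.8% in stomach, 0.885% in eye, 0.498% in liver, 0.279% in cloacal chamber, 0.15% in kidney and 0.146% in lung. No member differed in its state effect among the 12 tissues, against 0.0693% of all genes. At an unadjusted p-value under 0.05 that test gave 4 members (10.5%), against 9.96% of all genes.

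**Figure D4:**
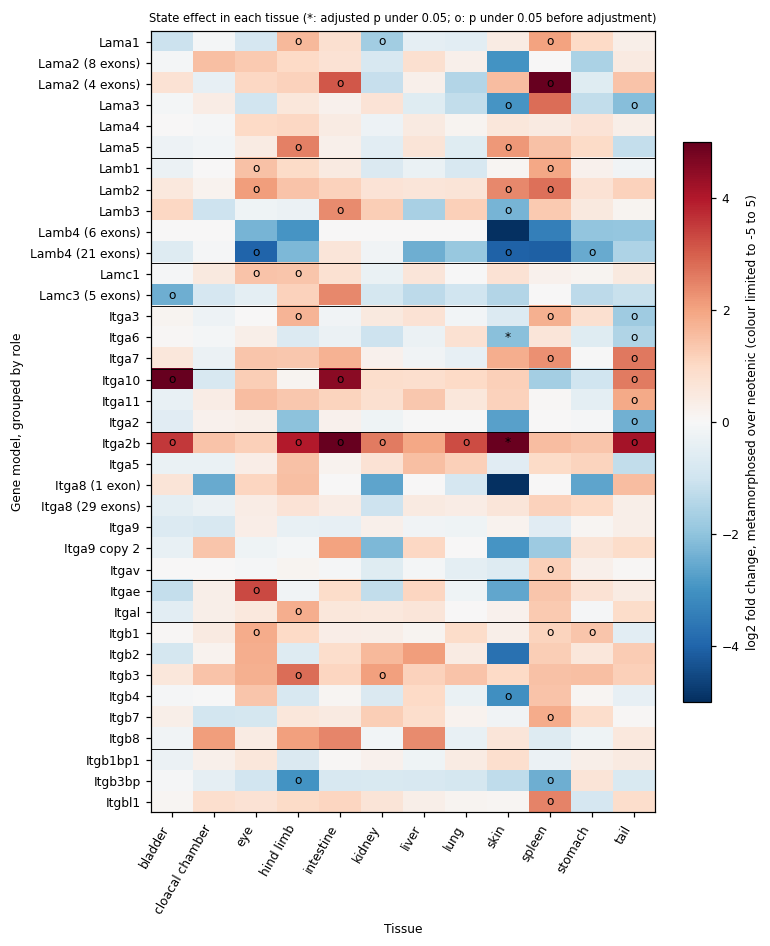
Log2 difference between metamorphosed and neotenic libraries (colour, metamorphosed minus neotenic) for 37 tested members (rows) in each of 12 tissues (columns). Stars mark an adjusted p-value under 0.05 (*Itga6* and *Itga2b* in skin) and circles an unadjusted p-value under 0.05, of which spleen has 11.

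In skin, the hemidesmosome and epidermal laminin members were lower in metamorphosed libraries. *Itga6* had 266 and 79.9 CPM, against 955 and 450 CPM in neotenic skin (−2.09, SE 0.54, adjusted p 0.0282). *Itgb4* had 72.5 and 12.6 CPM, against 341 and 185 CPM (−3.06, SE 1.18, adjusted p 0.114). *Lamb3* had 40.3 and 46.9 CPM, against 341 and 107 CPM (−2.33, SE 0.98, adjusted p 0.147). *Itga6* alone of the set passed, and all 3 were without overlap between the states. In metamorphosed replicate 1 these values rest on 33 counts of *Itga6*, 9 of *Itgb4* and 5 of *Lamb3*. The share of all genes without overlap is not given, here or for other tissues. *Lama3* had 0 and 3.21 CPM, against 35.5 and 8.38 CPM (−2.96, SE 0.97, adjusted p 0.0656). For *Lama3*, a count of 0 in metamorphosed skin replicate 1 allows up to 24.2 CPM, which covers the lower of the neotenic values.

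**Figure D5:**
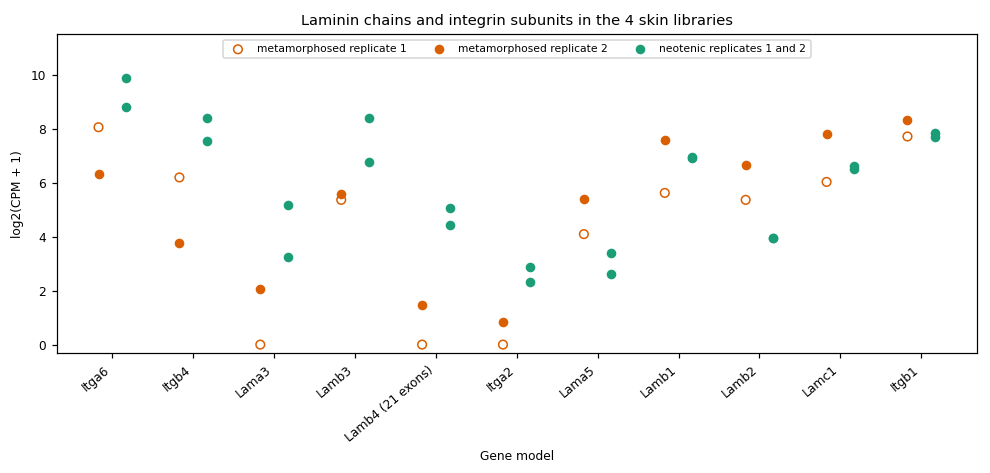
Levels as log2(CPM + 1) of 11 laminin chains and integrin subunits in the 4 skin libraries, with metamorphosed points (open for replicate 1) left of neotenic ones. The 2 metamorphosed *Itga6* values, 266 and 79.9 CPM, lie under the neotenic 955 and 450 CPM, whereas those of *Lamb2* lie above the neotenic ones. In metamorphosed replicate 1 the *Lamb2* value rests on 5 counts.

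The call of *Itga6* was kept with DESeq2 (−1.75, adjusted p 0.0258), with the replicate number as a block (−2.11, adjusted p 0.0235), without metamorphosed replicate 1 (−3.14, adjusted p 0.0146) and without neotenic replicate 2 (−2.54, adjusted p 0.0462). It was lost with DESeq2 size factors (−1.68, adjusted p 0.0843) and in a fit of the 4 skin libraries alone (−1.79, adjusted p 0.138), and also without metamorphosed replicate 2 (−1.40, adjusted p 0.484) or neotenic replicate 1 (−1.45, adjusted p 0.216). Markers of epithelium, 6 genes, summed to 612 and 996 CPM in metamorphosed skin, against 5498 and 3508 CPM in neotenic skin. Of these, *Krt12* had 0 and 1.74 CPM, against 3351 and 1735 CPM, so it made up a large part of the neotenic sums. The paper cites earlier microarray work on skin after metamorphosis, in which *Krt12* and *Krt15* fell while *Krt4*, *Krt14* and *Krt24* rose. Within skin, 1 of the 6 genes was called lower and 0 higher, and their median log2 difference was −2. Whether the share of epidermal cells was lower, and its part in the *Itga6* difference, was not tested. In tail, *Itga6* had 176 and 108 CPM, against 409 and 388 CPM (−1.49, adjusted p 0.194), and *Lama3* had 1.56 and 1.74 CPM, against 7.95 and 6.80 CPM (−2.15, adjusted p 0.282). Neither overlapped between the states in tail. Without neotenic tail replicate 2 the differences there were −1.53 for *Itga6* (adjusted p 0.475) and −2.25 for *Lama3* (adjusted p 0.555).

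*Itga2b*, the other call in skin, had 0 and 14.4 CPM in metamorphosed libraries, against 0.581 and 0.0942 CPM in neotenic libraries (4.92, SE 1.33, adjusted p 0.0341). That rise rests on metamorphosed replicate 2, which also carried 2918 CPM of intestinal markers, against 13.1 and 4.71 CPM in neotenic skin. Metamorphosed replicate 1 was not free of such genes. It carried 330 CPM of intestinal markers, and 282 CPM of lung markers, against 34.1 and 32.7 CPM in neotenic skin. Without that library metamorphosed skin held no count of *Itga2b*, where up to 24.2 CPM is possible, and no difference could be estimated. The part of the intestinal genes was not tested. *Lamb2* had 40.3 and 100.4 CPM, against 14.6 and 14.6 CPM (2.38, SE 0.83, adjusted p 0.0803), and *Lama5* 16.1 and 40.7 CPM, against 5.17 and 9.51 CPM (2.16, SE 0.90, adjusted p 0.144). Without replicate 2 these were 1.46 (adjusted p 0.918) and 1.14 (adjusted p 1). In metamorphosed replicate 1, the value of *Lamb2* rests on 5 counts and that of *Lama5* on 2. The median log2 difference of all genes in skin was −0.39 with TMM scaling and −0.25 with DESeq2 size factors, and that of the members was −0.06 with TMM scaling.

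Spleen had the largest share of members at an unadjusted p-value under 0.05, 28.9% against 9.55% of all genes, and none passed adjustment. Of these 11 members, 10 were higher in metamorphosed spleen. *Lamb1* had 14.5 and 6.12 CPM, against 2.97 and 2.46 CPM in neotenic spleen (1.93, SE 0.60, adjusted p 0.175). *Lamb2* (2.77, SE 0.93, adjusted p 0.216), *Itgav* (1.19, SE 0.44, adjusted p 0.278), *Itgbl1* (2.48, SE 0.95, adjusted p 0.322) and *Itga7* (2.29, SE 0.94, adjusted p 0.390) followed. The 4-exon *Lama2* model had 1.29 and 0.987 CPM, against no count, which makes the metamorphosed mean at least 2.35-fold higher. The members' median was 1.13, or 1.02 with members without a count in a state at their bound, against 0.17 over all genes. Markers of erythrocytes summed to 296 and 426 CPM in metamorphosed spleen, against 4224 and 4904 CPM in neotenic spleen, and markers of stroma to 4043 and 4842 CPM, against 2443 and 2645 CPM. The part of this difference in composition was not tested.

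In hind limb, 9 members (23.7%) had an unadjusted p-value under 0.05, against 18.3% of all genes. The lowest p-value belonged to *Lamc1* (1.40, SE 0.41, adjusted p 0.0677). *Lama5* had 22.8 and 42.8 CPM in metamorphosed libraries, against 5.06 and 6.50 CPM in neotenic ones (2.51, SE 0.88, adjusted p 0.118). *Itgal* had 13.2 and 14.8 CPM, against 4.41 and 3.43 CPM (1.83, SE 0.71, adjusted p 0.157). Without replicate 2, the library with intestinal genes, *Lamc1* gave 1.40 (adjusted p 0.364), *Lama5* 1.98 (adjusted p 0.528) and *Itgal* 1.74 (adjusted p 0.492). *Lama1* and *Itga3* were high in replicate 2 alone, where *Itga3* had 61.2 CPM, against 9.16 CPM in metamorphosed replicate 1 and 10.2 and 11.4 CPM in neotenic libraries.

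In eye, 6 members (15.8%) had such a p-value, against 6.43% of all genes, and 5 of them were higher in metamorphosed libraries. Apart from *Itgb1*, *Lamc1* and *Lamb2*, given above, *Lamb1* had 132 and 129.8 CPM, against 69.9 and 25.8 CPM (1.45, SE 0.57, adjusted p 0.616). The chains *Lamb1*, *Lamb2* and *Lamc1* and the subunit *Itgb1* thus lay higher in both metamorphosed eye libraries than in either neotenic one. Skeletal muscle markers there summed to 5878 and 7400 CPM in metamorphosed libraries, against 463 and 1169 CPM in neotenic libraries. Stroma markers summed to 9862 and 9709 CPM, against 6842 and 2452 CPM, and leukocyte markers to 322 and 777 CPM, against 121 and 97.4 CPM. The part of these cell types was not tested.

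In tail, *Itga3* was lower, with 21.9 and 24.5 CPM, against 63.6 and 95.6 CPM (−1.78, adjusted p 0.292), and *Itga10* higher, with 9.38 and 7.59 CPM, against 1.75 and 0.971 CPM (2.60, adjusted p 0.403). The 95.6 CPM of *Itga3* came from neotenic tail replicate 2, the library with stomach gland genes, and neotenic stomach replicate 2, which carried skin and muscle genes, had 14.5 CPM, under both metamorphosed tail values. Without that tail library *Itga3* gave −1.45 (adjusted p 0.724), *Itga10* 2.26 (adjusted p 0.779), *Itga7* 2.73 (adjusted p 0.545) and *Itga11* 1.43 (adjusted p 0.796). In kidney, *Lama1* had 33.8 and 27.2 CPM in metamorphosed libraries, against 100.4 and 102 CPM in neotenic libraries (−1.73, SE 0.63, adjusted p 1). It was the kidney member with the lowest p-value, and the neotenic organ is where *Lama1* is most enriched.

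Bladder, intestine, stomach and lung gave few members. In bladder the 5-exon *Lamc3* model had 1.88 and 1.01 CPM in metamorphosed libraries, against 6.99 and 8.66 CPM in neotenic libraries (−2.44, adjusted p 0.537). It gave −2.05 without metamorphosed replicate 2 and −2.28 without neotenic replicate 2 (adjusted p 1 in both). In intestine the 4-exon *Lama2* model had 2.13 and 59.7 CPM, against 2.12 and 5.15 CPM, so that its difference (3.10, adjusted p 0.283) came from replicate 2. In stomach *Itgb1* had 443 and 512 CPM, against 212 and 151 CPM (1.40, adjusted p 0.386). The 151 CPM came from neotenic stomach replicate 2, which lacked stomach gland genes, and the neotenic tail library that carried them had 827 CPM, above both metamorphosed stomach values. Without that stomach library the difference was 1.17 (adjusted p 1).

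Leukocyte members did not pass in any tissue in edgeR's fit of all 61 libraries. In edgeR fits of the 4 libraries of a tissue alone, *Itgal* passed in spleen (1.19, adjusted p 0.0313) and *Itgb2* in skin (−3.75, adjusted p 0.0346). The share of all genes called in these fits is not given. *Itgb2* held 0 and 1 counts in metamorphosed skin, against 28 and 22 counts in neotenic skin. The count of 0 was in metamorphosed replicate 1, where up to 24.2 CPM is possible, so the size of that difference is uncertain. In spleen *Itgb7* had 23.3 and 13.0 CPM, against 3.90 and 6.15 CPM (1.85, adjusted p 0.468), and *Itgal* had 129.7 and 135.5 CPM, against 54.8 and 51.7 CPM (1.32, adjusted p 0.568). Leukocyte markers there summed to 6463 and 7018 CPM, against 3355 and 3582 CPM.

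The enrichment seen in neotenic tissues was set against levels in metamorphosed ones. Of 99 called pairs whose tissue was also sampled after metamorphosis, 59 (59.6%) lay among the 3 highest of the 15 metamorphosed tissues, against 64.9% for all genes. The enriched tissue was the highest for 26.3% of the members' pairs, against 31.7% for all genes. The leading tissue was retained by *Itga2b* (spleen), *Lama4* (heart), *Lama5* (lung), *Lama1* (kidney) and *Itga11* (liver). *Lamb3*, with skin first in neotenic axolotls, had bladder first in metamorphosed ones, and *Itga6* had heart first, at 222 CPM. Metamorphosed heart had 1 library, and the skin means are uncertain. In metamorphosed skin *Itga6* had 266 CPM in replicate 1, above the heart value, and 79.9 CPM in replicate 2, the library with intestinal genes. Replicate 1 held 33 counts of *Itga6* and 5 of *Lamb3*.

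The 3 tissues with 1 metamorphosed library have no replicate check and no p-value. In brain, 20 of 38 members lay above both neotenic libraries and 8 below both, against 36.9% and 29.5% of all genes. *Itgb8* had 57.6 CPM in metamorphosed brain, against 26.6 and 36.0 CPM in neotenic brain. *Itga2b* was low there and lay below both, with 0.784 CPM on 7 counts, against 0.873 and 1.82 CPM. In heart, 16 lay above and 11 below, against 38.1% and 27.2% of all genes. *Itga2b* had 10.2 CPM in metamorphosed heart, against 40.6 and 21.4 CPM in neotenic heart, as in brain the opposite direction to the paired tissues. In fore limb, 18 lay above and 15 below, against 45.1% and 36.1% of all genes, in a library that carried intestinal genes. *Itga2b* had 14.1 CPM there, against 0.335 and 0.194 CPM.

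Genes that work with integrins and laminins were described beside the members by the same mean difference. Of 10 basement membrane partners, 3 rose and none fell, against 10.9% of all genes that rose and 7.02% that fell. These were *Hspg2*, which encodes perlecan (1.35, adjusted p 4.68e-05), the collagen IV chain *Col4a2* (1.05, adjusted p 0.00223) and *Nid2*, a linker of laminin and collagen IV (0.50, adjusted p 0.0276). Of 4 hemidesmosome partners, none passed, and their median was −0.09. Within single tissues their median was −1.37 in skin, against −0.39 over all genes there, and 0.93 in tail. None passed in skin or tail. Of 20 cytoplasmic adaptors and signalling genes, 1 rose, the actin-binding adaptor *Parva* (0.59, adjusted p 0.0405), a share below that of all genes, and the median was 0.28.

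Other ligands of integrins rose most often, in 6 of 8 genes, with a median of 1.29 against 0.02 over all genes. Fibronectin (*Fn1*) rose by 1.21 (SE 0.17, adjusted p 7.39e-06) and tenascin C (*Tnc*) by 1.04 (adjusted p 0.00104). The fibrinogen chains *Fgb* and *Fgg* rose by 2.62 and 2.63, vitronectin (*Vtn*) by 2.19 and von Willebrand factor (*Vwf*) by 1.37. Fibrinogen and vitronectin are made by the liver, and 4 of 4 liver markers also rose in the mean over tissues. The part of liver RNA was not tested.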

How the data were processed

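RNA had been extracted with TRIzol, and tagmented libraries were sequenced in paired-end mode. The authors deposited raw counts per gene model, made with featureCounts v1.6.0 on exons of AmexG_v3.0.0, with no strand setting and without normalization. STAR is named in the submitters' notes, and its version is not given in the sources used here. Each library's state, tissue and replicate number came from its title. The count column of metamorphosed tail replicate 1 names no tissue, and that of neotenic intestine replicate 2 names the small intestine.

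Counts were fitted with edgeR 4.0.16 in R 4.3.3. After TMM scaling and filterByExpr, all 61 libraries and 20216 genes entered a quasi-likelihood model with a coefficient for each combination of state and tissue. State was tested in each of 12 tissues, as the mean over them, and as a difference among them. Enrichment was fitted to 34 neotenic libraries with 18982 genes. Benjamini-Hochberg adjustment ran over all genes, or over all gene and tissue pairs, at 0.05. DESeq2 1.42.0 and limma 3.58.1 served as alternatives, the latter on log2 CPM. Scripts were tested on simulated data. Members and gene lists were chosen with earlier results of these data known.

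The replicate number is called a batch in the labels, and the titles repeat it in both states. Deviations of same-numbered libraries from their group means correlated between the states at −0.44 to 0.29 over the 12 tissues (median −0.05), and 3 tissues exceeded 0.1. Between tissues of a state, the median correlation of these deviations was 0.31 in metamorphosed and 0.10 in neotenic axolotls, so libraries with the same number deviated together to that extent within a state. Named with values were members that passed a test, the highest member per kilobase of each role, the most enriched member of each tissue, and the epidermal, leukocyte and thrombocyte subunits. Of the 41 members, 39 have a symbol in the RefSeq table of UKY_AmexF1_1, from which only names were taken. A member and a marker gene are not reported here by name, and they remain in the counts and sums.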

Additional observations from a re-analysis of the deposited data

How the results depend on the processing

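Counts of members called in a tissue changed with the tool and the libraries. In skin 2 members were called, against 6 with DESeq2, 6 in a fit of its 4 libraries, 4 with a replicate block within each state, 1 with DESeq2 size factors and 0 to 2 without 1 library. *Itga2b* in skin gave −4.61 to 6.69 without 1 library, the lowest without metamorphosed replicate 2, which leaves a group with no count, so that this value has no meaning. In hind limb the count of 0 became 5 with DESeq2, 3 with a replicate block within each state and 0 to 3 without 1 library. It became 2 with DESeq2 and 0 to 1 without 1 library in intestine, 4 in a fit of the 4 libraries in spleen, and 1 with DESeq2 in tail. Bladder, cloacal chamber, eye, kidney, liver, lung and stomach gave 0 under every alternative run.

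The 11 members called in the mean over 12 tissues became 6 without skin, hind limb and bladder, 4 without stomach and tail as well (*Itga2b*, *Itgb3*, *Lamb2* and *Itgb1*), and 3 to 13 without 1 replicate number of 1 state. The lowest count was without metamorphosed replicate 2, where *Itgb3*, *Lamc1* and the 21-exon *Lamb4* model were called, and without neotenic replicate 1 it was 5. With the replicate number as a block, 11 members were called in the mean and 114 pairs in enrichment, and beyond *Itga6* and *Itgbl1* no call of the mean changed. Members whose state effect differed among tissues numbered 0, and 0 to 1 without 1 replicate number. Of the 111 enriched pairs, 62 were called at a log2 fold change of at least 2, and 55 to 78 without 1 library of the enriched tissue. The alternatives of a block within state, limma-trend, DESeq2 for the mean, and leaving out skin with hind limb and bladder or spleen were chosen after seeing the data. Among all alternatives run, the share of all genes called is given above for DESeq2 within tissues and limma-trend for the mean. For the others it is not given, so their counts of members cannot be set against it.

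Depth limits metamorphosed skin, where replicate 1 holds 69278 counts, and members near or under 1 CPM elsewhere. With 2 libraries against 2, 6 of the 12 tissues gave no call for any gene, so the lack of a call for a member in them says little.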

Other observations

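Gonad, which was sampled in neotenic axolotls alone, entered no comparison between the states. Its 2 libraries differed widely, for basement membrane genes and also for markers of cell types. Stroma markers summed to 14350 and 276 CPM in replicates 1 and 2, and leukocyte markers to 1201 and 21.4 CPM. Epithelial markers went the other way, with 35.5 and 597 CPM. The part of composition in the differences of members was not tested. *Lamb1* had 688 and 197 CPM in replicates 1 and 2, and *Lama5* had 227 and 33.6 CPM. The 10 basement membrane partners summed to 1281 and 392 CPM in the same libraries. *Itga5* did not follow them, with 15.0 and 14.9 CPM. Gill, also neotenic only, had close replicates for *Itgb7* (5.79 and 5.27 CPM) and *Lama1* (19.7 and 19.8 CPM), and *Lamb3* differed there, with 103 and 51.4 CPM.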
